A study of Mus musculus with 48 samples.

Results

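The spleens of A/J and C57BL/6J mice at time 2 were compared, using every array of spleen whose title names time 2. They were 3 A/J and 3 C57BL/6J arrays, 6 of the 48 in the series, and every probe set other than the 66 controls of the array entered the comparison. The series measured liver, heart, spleen and lung of both inbred strains at time points called 1 and 2, which the sources used here do not define. Per the labels, the mice of every group were male littermates aged 3 months, each array held 1 biological replicate, and about 20 micrograms of total RNA went into each target. No treatment or engineered allele is named for either strain. The sources say neither how many litters were used nor whether a mouse gave more than 1 tissue, so litter and strain cannot be told apart, and the p-values below measure the spread between these animals. The scanned files of all time 2 arrays carry 1 common name stem in the labels, and both strains are within it. A probe set is a group of short probes that together read 1 or more transcripts, and its deposited value is on a log2 scale, where 1 unit is a 2-fold change.

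The spleen filters blood and mounts immune responses. Its red pulp holds macrophages that clear worn red cells, and in the adult mouse, unlike in the adult human, the red pulp also produces red cells. Erythroid precursors divide rapidly while they switch on globin, heme synthesis and membrane skeleton genes under transcription factors such as GATA1, TAL1 and KLF1. The white pulp holds B and T lymphocytes, and B cells, dendritic cells and macrophages carry the MHC class II molecules that present peptides to helper T cells. In a bulk sample, fewer cells of a type, less RNA per cell and more RNA from other cells cannot be told apart.

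The A/J spleens had more RNA of red cell precursors and of dividing cells, and less of several lymphocyte, macrophage and antigen presentation genes. Hemgn, which encodes the red cell precursor protein hemogen, was 12.13, 12.73 and 12.11 in the 3 A/J spleens and 7.96, 6.04 and 7.89 in the C57BL/6J spleens. Mki67, a nuclear protein of cycling cells, stood at 10.21, 10.79 and 10.23 against 6.77, 6.83 and 7.05. Cd5l, a protein secreted by tissue macrophages, was at 7.49, 7.68 and 7.51 against 10.63, 9.33 and 10.20. The strains did not overlap in these genes, but they were named from calls without overlap. Of all genes read by 1 probe set, 12.1% had A/J values all above and 17.1% all below the C57BL/6J values. In A/J 663 probe sets (5.34%) were higher and 445 (3.58%) lower than in C57BL/6J (limma, Benjamini-Hochberg adjusted p under 0.05), while 2890 had an unadjusted p under 0.05. Of the 663 and 445, 265 and 55 differed by at least 2-fold, and 62 and 12 by at least 4-fold. The median difference over all probe sets was -0.054 (A/J minus C57BL/6J, as in every difference below). Read by 1 probe set per gene, A/J exceeded C57BL/6J in 497 of 8251 genes (6.02%) and was below it in 320 (3.88%), and the counts of gene lists below are to be set against these shares.

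**Figure D1:**
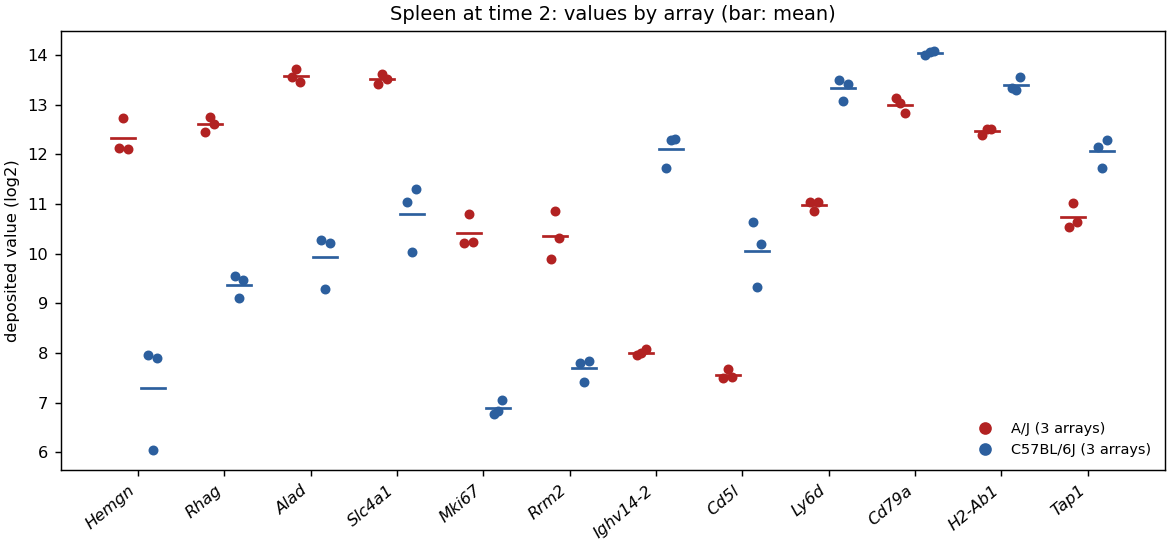
Deposited log2 values of 12 genes in the 3 A/J (red) and 3 C57BL/6J (blue) spleens of time 2; each point is an array and each bar a group mean. The strains do not overlap in any of the 12, several of which were named from calls without overlap. The left 6 genes are higher in A/J and the right 6 higher in C57BL/6J.

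Transcripts of other organs stood high in some of these spleens, in patterns that differed between the arrays. Alb, the albumin of hepatocytes, was 13.27, 12.38 and 11.92 in the A/J spleens and 8.42, 8.47 and 10.31 in the C57BL/6J spleens, against 8.59 to 8.92 in the 6 spleens of time 1 and 14.39 to 14.46 in the livers of time 2. The mean of 28 hepatocyte genes was 9.67, 9.08 and 8.93 in A/J and 8.28, 8.20 and 8.76 in C57BL/6J. All 3 A/J spleens and C57BL/6J replicate 3 were above the spleens of time 1 in this mean. By gene, 16, 7 and 6 of the 28 exceeded the highest spleen of time 1 by 1 log2 unit or more in A/J replicates 1, 2 and 3, and 0, 0 and 4 in the C57BL/6J replicates in the same order. In the test, 7 of the 28 were higher in A/J and 0 lower, with a median of 0.71, among them Cyp3a11, a drug-metabolising P450 (2.66, adjusted p 0.0125), and Serpina1b, an antitrypsin (2.00, adjusted p 0.0253). The count was 4 without A/J replicate 2, 3 without C57BL/6J replicate 1, and 12 without A/J replicate 3 or C57BL/6J replicate 3.

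Genes of the exocrine pancreas, which makes digestive enzymes and lies against the spleen, followed another pattern. Prss2, a trypsinogen, was 7.81, 7.35 and 9.80 in A/J and 13.92, 7.59 and 12.64 in C57BL/6J, so C57BL/6J replicates 1 and 3 stood high and the groups overlapped. The mean of 19 such genes was 8.89, 8.72 and 9.17 in A/J and 11.53, 8.86 and 10.45 in C57BL/6J. In C57BL/6J replicates 1 and 3, 14 and 13 of the 19 were at least 1 log2 unit above A/J replicate 2, against 1 in A/J replicate 3 and 0 in the other spleens. None of the 19 passed the test in either direction, although their median was -1.33. The 10 endocrine pancreas genes had a median of -0.07, with 0 passing. In the spleens of time 1 the exocrine mean was 11.51, 9.11 and 11 in A/J and 8.98, 10.67 and 8.91 in C57BL/6J.

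Transcripts of testis germ cells were high in C57BL/6J replicates 1 and 2. Prm1, a protamine that packs sperm DNA, was 7.68, 7.04 and 7.26 in A/J and 10.94, 11.16 and 7.75 in C57BL/6J, and the spleens of time 1 lay between 7.31 and 7.70. Tnp2, a transition protein of spermatids, was 9.32, 9.15 and 9.02 against 11.39, 11.75 and 9.21. Ldhc, a germ cell lactate dehydrogenase, was 6.46, 6.21 and 6.28 against 8.34, 9.67 and 6.61. Of 29 measured testis genes, a list put together after these values were seen, 3 exceeded the spleens of time 1 by 1 unit or more in C57BL/6J replicates 1 and 2, 0 did so in the other 4 spleens, and 0 passed the test. Among the 42 other arrays Prm1 ranged from 7.21 to 10.27, the highest being a C57BL/6J liver of time 2.

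The ends of the Gapdh transcript, a measure of RNA integrity and labelling, also differed by strain. The 3′ probe set exceeded the middle probe set by 0.60, 0.59 and 0.57 in A/J and by 0.28, 0.30 and 0.29 in C57BL/6J, with no overlap. The 3′ probe set exceeded the 5′ probe set by 0.90, 0.82 and 0.58 against 0.60, 0.48 and 0.51. The part of these organ transcripts and of the Gapdh ends in the strain differences was not tested as a cause. Counts without the arrays high in pancreas or testis transcripts are given beside many of the results. For hepatocyte transcripts and the Gapdh ends every A/J spleen is concerned, so no count without such arrays can be given. By probe set, 51 of the 663 higher in A/J (7.69%) and 7 of the 445 lower (1.57%) were high in liver. That is a time 2 liver mean at least 2 log2 units above the C57BL/6J spleen mean, which 3.58% of all probe sets had. The C57BL/6J spleen mean enters both this gap and the test, so the shares are not independent of the calls. Without such probe sets 619 and 453 passed.

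**Figure D2:**
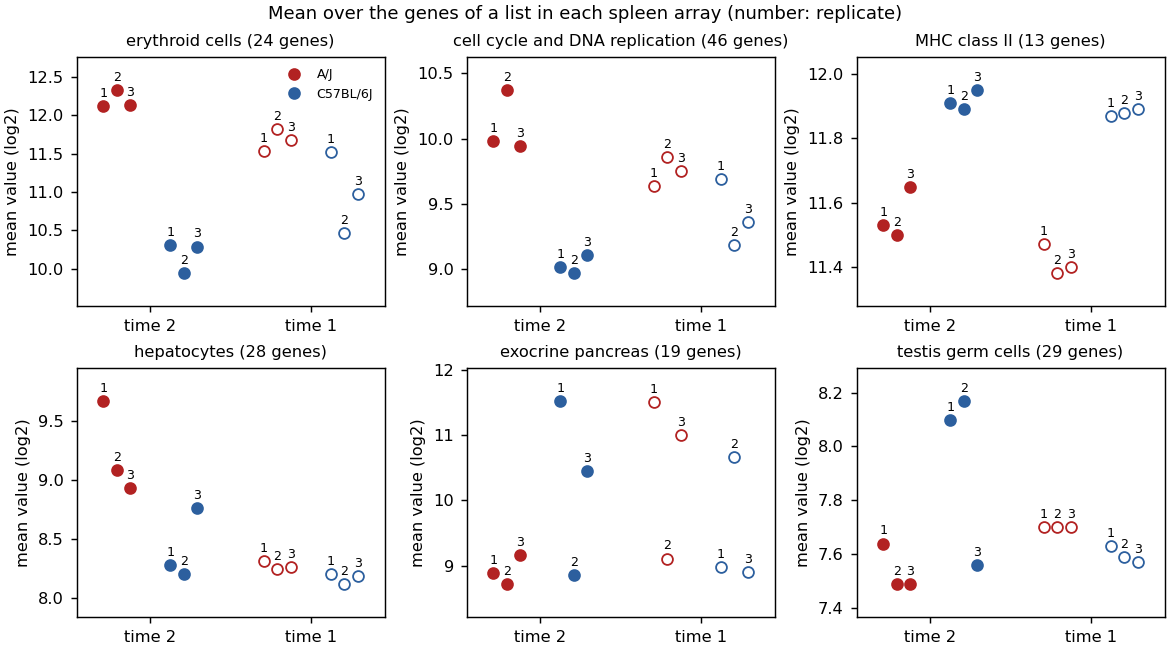
Mean log2 value over the genes of 6 lists in each of the 12 spleen arrays, with filled points for time 2 and open points for time 1, red for A/J and blue for C57BL/6J, and the replicate number above each point. At time 2 the strains are apart for erythroid, cell cycle, MHC class II and hepatocyte genes, the last from 9.67 in A/J replicate 1 to 8.20 in C57BL/6J replicate 2, and they overlap for exocrine pancreas genes, which stand high in C57BL/6J replicates 1 (11.53) and 3 (10.45).

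Without C57BL/6J replicates 1 and 3, the arrays high in pancreas transcripts, 325 probe sets were higher and 110 lower in A/J, and 370 of these 435 were calls of all 6 arrays in the same direction. Without C57BL/6J replicates 1 and 2, the arrays high in testis transcripts, 261 and 197 passed, of which 393 were shared. Both of these fits leave 1 C57BL/6J spleen, whose spread is assumed to be that of the A/J spleens. With the hepatocyte mean of each array as a covariate 155 and 38 passed, and 190 of these 193 were shared. Of the 1108 probe sets called in all 6 arrays, 1 turned its direction. The hepatocyte mean separates the strains without overlap, so strain and covariate cannot be fully told apart in this fit. Leaving out A/J replicate 2 gave 392 and 160, C57BL/6J replicate 1 413 and 211, A/J replicate 3 449 and 234, and C57BL/6J replicate 3 534 and 285.

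Red cell genes moved in 1 direction. Of 24 measured, 21 rose and 0 fell in A/J, with a median difference of 2.16 and a range of -0.02 to 5.03. Hemgn was higher by 5.03 (SE 0.45, adjusted p 2.21e-04), a 32.6-fold difference, and its other probe set gave 2.83. The C57BL/6J replicate 2 value of 6.04 was within the 5.77 to 6.25 of the 18 liver, heart and lung arrays of time 2, so the fold for Hemgn is a lower bound. The count was 19 without the C57BL/6J arrays high in pancreas transcripts, 20 without those high in testis transcripts, 17 with the hepatocyte mean and 18 with Prm1 as a covariate, and the median stayed between 1.98 and 2.42 in every alternative that read 1 probe set per gene. Of the 24, 22 had A/J values all above the C57BL/6J values, against 12.1% of genes.

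The promoters of 5 of the red cell and heme genes described here are shown, because each window holds a word with a GATA core. The erythroid factor GATA1 acts through sites with such a core. Each line is the 250 bases before the gene's start from RefSeq on GRCm38.p6, 5′ to 3′ on the strand of the gene, and capitals mark the word AGATAA or TGATAA or its reverse complement, searched on both strands. The windows are chr4:46404184-46404433 on the minus strand for Hemgn, chr17:40810899-40811148 for Rhag, chr4:134864286-134864535 for Rhd, chr8:84901732-84901981 for Klf1 and chrX:150547167-150547416 for Alas2, the last 4 on the plus strand.
Hemgn: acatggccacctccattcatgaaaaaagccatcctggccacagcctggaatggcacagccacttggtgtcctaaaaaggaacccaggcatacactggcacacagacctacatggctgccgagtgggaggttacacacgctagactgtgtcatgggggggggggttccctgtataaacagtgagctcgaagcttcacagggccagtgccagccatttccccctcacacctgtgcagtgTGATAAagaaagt
Rhag: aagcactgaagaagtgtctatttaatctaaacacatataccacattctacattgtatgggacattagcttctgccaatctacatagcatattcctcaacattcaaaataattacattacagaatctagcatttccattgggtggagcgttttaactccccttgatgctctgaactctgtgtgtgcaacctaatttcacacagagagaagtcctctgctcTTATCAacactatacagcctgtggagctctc
Rhd: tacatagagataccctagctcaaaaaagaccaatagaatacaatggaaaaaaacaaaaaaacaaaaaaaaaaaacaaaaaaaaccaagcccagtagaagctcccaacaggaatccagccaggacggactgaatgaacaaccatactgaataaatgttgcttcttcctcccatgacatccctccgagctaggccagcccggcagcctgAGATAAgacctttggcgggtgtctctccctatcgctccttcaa
Klf1: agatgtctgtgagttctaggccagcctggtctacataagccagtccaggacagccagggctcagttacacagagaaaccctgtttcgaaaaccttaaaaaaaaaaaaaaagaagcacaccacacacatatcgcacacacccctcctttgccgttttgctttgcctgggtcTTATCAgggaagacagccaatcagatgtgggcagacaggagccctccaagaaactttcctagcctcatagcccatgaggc
Alas2: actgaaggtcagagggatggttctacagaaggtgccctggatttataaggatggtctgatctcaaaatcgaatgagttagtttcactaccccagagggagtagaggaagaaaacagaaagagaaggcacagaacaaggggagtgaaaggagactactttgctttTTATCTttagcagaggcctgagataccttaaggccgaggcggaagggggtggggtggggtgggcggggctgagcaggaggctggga
In these windows the word began 13 bases upstream of the start in Hemgn, 31 in Rhag, 43 in Rhd, 80 in Klf1 and 86 in Alas2. Of the 24 erythroid genes, 15 had a promoter entry and 8 of them (53.3%) held the word in at least 1 entry. Among the members that passed the test the count was 6 of 13 (46.2%), and both members that did not pass and had an entry, Epb42 and Hba-a1, held it. In the heme list 3 of 11 (27.3%) held it. Of all measured genes with an entry 851 of 6576 (12.9%) held it, and of all entered genes 5092 of 27025 (18.8%). The list is one of known red cell genes, so this share describes the list and not the strain difference, and a match is a description of letters, not evidence of binding. No match was found in the windows of Alad, Aqp1, Gata1, Mgst3, Prdx2, Bpgm, Tfrc, Tspo2, Ppox or Abcb10, all higher in A/J by the probe set that represents them, which says only that these letters are not there.

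Among the transcription factors of the lineage, Klf1, an activator of beta globin, was 11.71, 12.36 and 11.77 in A/J and 9.97, 9.22 and 9.59 in C57BL/6J (2.36, SE 0.22, adjusted p 2.68e-04). Tal1, a partner of GATA1, was 9.91, 10.35 and 10.09 against 7.66, 7.24 and 7.48 (2.65, SE 0.15, adjusted p 1.76e-05). Gata1 itself was 10.38, 10.88 and 10.37 against 9.55, 9.34 and 9.41 (1.11, SE 0.15, adjusted p 0.00198), and its other probe set gave 0.92. All A/J spleens were above all C57BL/6J spleens for the 3 factors. Nfe2, a globin locus factor, was higher by 2.67 and Lmo2, a bridging protein of the GATA1 complex, by 0.87. Epor, the erythropoietin receptor that keeps precursors alive, was higher by 1.26.

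Other members belong to the red cell membrane. Rhag, the Rh-associated glycoprotein, was 12.46, 12.76 and 12.61 in A/J and 9.56, 9.10 and 9.46 in C57BL/6J (3.24, SE 0.14, adjusted p 1.13e-05), and Rhd, the Rh protein it carries to the surface, was higher by 3.04. Slc4a1, the band 3 anion exchanger, was 13.41, 13.63 and 13.52 against 11.04, 10.04 and 11.31 (2.73, SE 0.28, adjusted p 4.21e-04). Aqp1, a water channel, was higher by 3.27, though its other, dimmer probe set gave -0.05. Ank1, the ankyrin that ties band 3 to the skeleton, was higher by all 3 of its probe sets, at 2.89, 2.03 and 1.45. Epb42, protein 4.2 of the skeleton, was 9.15, 10.26 and 10.02 against 6.21, 6.23 and 6.11 by 1 probe set (3.62, adjusted p 4.05e-05), while the probe set that represents it in the list gave -0.02 and is 1 of the 3 members that did not pass.

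Enzymes and globins completed the list. Car2 and Car1, carbonic anhydrases, were higher by 2.74 and 2.29, Mgst3, a glutathione transferase, by 3.14, Prdx2, an abundant peroxiredoxin of red cells, by 2.00, and Bpgm, which makes 2,3-bisphosphoglycerate, by 1.32. Tfrc, the transferrin receptor that brings in iron, was 12.99, 12.74 and 13.00 against 12.01, 12.16 and 11.98 (0.86, adjusted p 0.00158), and 2.22 by its other probe set. Hba-a1, an alpha globin, was 14.60, 14.60 and 14.61 against 14.45, 14.51 and 14.54, close to the array maximum of 14.63 to 14.67, where a difference may be understated. It did not pass, at 0.10 (adjusted p 0.545), and neither did the embryonic globin Hbb-bh1 at 0.12. Hbb-b2, an adult beta globin kept in the list of genes with known strain alleles, was higher in A/J by 0.73 (adjusted p 0.00245).

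Heme synthesis and iron handling was described by 14 genes, of which 8 rose and 0 fell in A/J, with a median of 0.62. Alad, the enzyme that joins aminolevulinate into porphobilinogen, was 13.57, 13.73 and 13.45 in A/J and 10.27, 9.29 and 10.21 in C57BL/6J (3.65, SE 0.24, adjusted p 3.38e-05), a 12.6-fold difference. Alas2, the erythroid enzyme that starts the pathway, was 14.30, 14.19 and 14.20 against 12.11, 12.58 and 13.35 (1.55, SE 0.26, adjusted p 0.00627). Fech, which inserts the iron, was 7.86, 8.10 and 7.64 against 6.02, 5.97 and 6.14 (1.82, SE 0.13, adjusted p 5.54e-05). The groups did not overlap for any of the 3. Uros (1.55), Ppox (1.27) and Cpox (0.83), enzymes of the middle and late steps, and Abcb10 (0.90), a mitochondrial transporter, were also higher, as was the iron carrier Slc11a2 (0.40, adjusted p 0.0478). Alas1, the housekeeping form of the starting enzyme, gave 0.18, and the heme oxygenases Hmox1 and Hmox2, which break heme down, gave 0.14 and -0.06, none of which passed. The count was 6 without the arrays high in testis transcripts and 4 with the hepatocyte mean or Prm1 as a covariate.

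Of the lists used, cell division had the most calls and was also the longest. Of 46 genes of the cell cycle and DNA replication, 33 rose and 0 fell in A/J, with a median of 1.09. Rrm2, the regulated subunit of ribonucleotide reductase, was 9.90, 10.86 and 10.32 in A/J and 7.80, 7.42 and 7.84 in C57BL/6J (2.67, SE 0.22, adjusted p 1.52e-04). Cdc6, which loads the replicative helicase, was 10.92, 11.49 and 10.98 against 8.66, 8.25 and 8.65 (2.61, SE 0.17, adjusted p 3.83e-05). Top2a, a topoisomerase of dividing cells, was 9.37, 10.30 and 9.56 against 7.83, 7.86 and 7.79 (1.92, SE 0.21, adjusted p 6.11e-04). A/J replicate 2 was the highest spleen for each of the 3 genes. Mitotic genes such as Birc5, or survivin (2.35), Ccnb2, a cyclin (1.85), and Aurka, a spindle kinase (1.84), were higher, and so were replication genes such as Pola1, a polymerase subunit (1.63), Fen1, a flap endonuclease (1.64), and Pcna, the sliding clamp (1.43).

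The members that did not pass included Plk1 (-0.04), Mcm5 (-0.02), Mcm6 (0.00), Ccne1 (0.02), Foxm1 (0.15) and Aurkb (0.58, with an adjusted p that rounds to 0.05). Dimmer probe sets of Mcm5 and Plk1 gave 0.61 and 0.60, which passed. Mki67 was higher by 3.53 (SE 0.16, adjusted p 1.14e-05) by the probe set named above, while the brighter probe set that stands for it in the list gave -0.08. The list's count was 21 without the arrays high in pancreas transcripts, 20 without those high in testis transcripts, 12 with Prm1 and 8 with the hepatocyte mean as a covariate. Its median stayed between 0.90 and 1.24 in every alternative that read 1 probe set per gene.

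**Figure D3:**
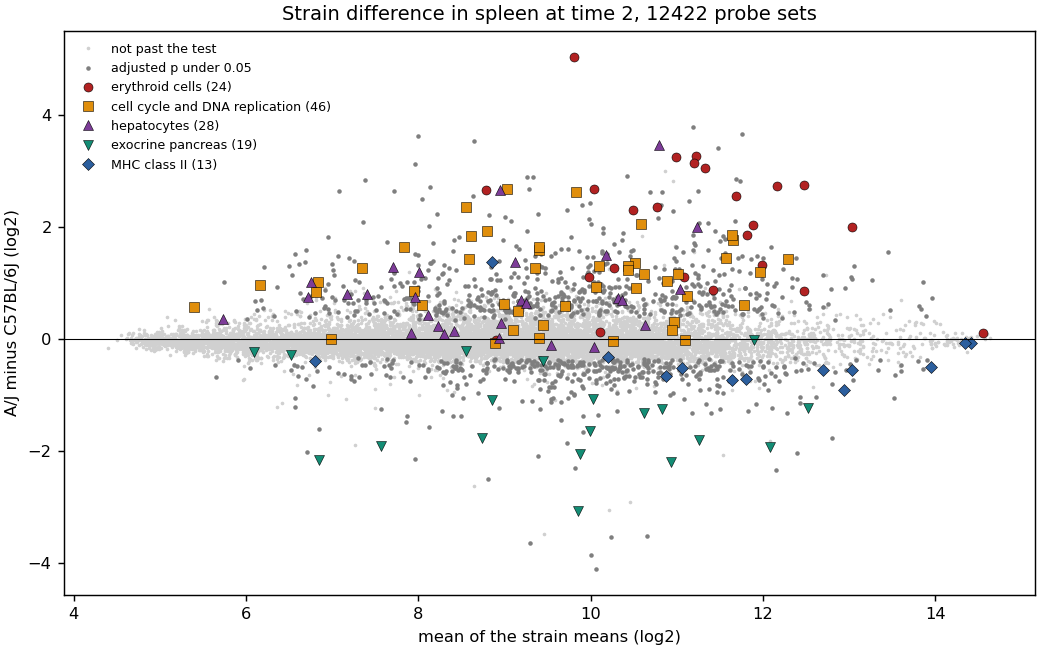
Strain difference (A/J minus C57BL/6J, log2) against the mean of the strain means (log2) for all probe sets in spleen at time 2; dark grey points passed the test, light grey did not, and coloured symbols are the genes of 5 lists, each read by 1 probe set. Erythroid genes (red) reach 5.03 and cell cycle genes (orange) 2.67, MHC class II genes (blue) other than H2-Ea lie at or below 0, and exocrine pancreas genes (green) lie low without passing.

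Among B cell genes the calls were fewer. Of 24 measured, 6 were lower and 1 higher, with a median of -0.33. Ly6d, a surface protein of B lineage cells, was 11.04, 10.86 and 11.04 in A/J and 13.49, 13.08 and 13.42 in C57BL/6J (-2.35, SE 0.13, adjusted p 1.76e-05), and its other probe set gave -0.40 (adjusted p 0.0488). Cd79a, a signalling chain of the B cell receptor, was 13.13, 13.04 and 12.83 against 14.01, 14.06 and 14.08 (-1.05, SE 0.11, adjusted p 3.99e-04). Cd37 (-0.60), Spib (-0.56), Ly86 (-0.55) and Vpreb3 (-0.51), all of the B lineage, were lower. Defining markers such as Ms4a1, or CD20 (0.15), Pax5 (0.06), Cd22 (-0.58), Cr2 (-0.25) and Cd79b (-0.42, adjusted p 0.0620), did not pass. The member that was higher, Cd24a (1.29, adjusted p 7.39e-04), is a surface glycoprotein that red cell precursors carry as well. The 6 became 2 without the arrays high in pancreas transcripts, without those high in testis transcripts, or with the hepatocyte mean or Prm1 as a covariate, and 4 without A/J replicate 2 or C57BL/6J replicate 1, and they were 10, 11 and 12 with 12, 24 and 48 arrays in the fit.

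Antibody genes were read by probe sets that gave mixed answers. Ighv14-2, a heavy chain variable segment, was 7.95, 7.99 and 8.08 in A/J and 11.73, 12.30 and 12.31 in C57BL/6J (-4.11, SE 0.16, adjusted p 1.08e-05), the largest difference in that direction among named genes, but further probe sets for it gave -0.60 and 0.05, short of the limit. Ighg3, a constant region, was lower by 1 probe set (-1.38, adjusted p 0.0277), and of its other 6 probe sets 1 was lower (-1.11), 1 was higher (0.63) and 4 did not pass. The call for the named Ighg3 probe set was lost without any 1 of the A/J replicates (adjusted p 0.0643 to 0.0742). Because variable and constant region genes are members of large families, whether a probe set reads only the gene it is named for was not checked. By 1 probe set per gene, 0 of 14 immunoglobulin and plasma cell genes passed in either direction, with a median of -0.16, and the brightest Ighm probe set, at 14.51, 14.49 and 14.51 against 14.44, 14.45 and 14.48, was near the array maximum. Of the dimmer Ighm probe sets 1 was lower (-0.86, adjusted p 0.00280). Jchain, the joining chain of secreted antibody, gave 1.13 (adjusted p 0.0565).

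Few T cell genes passed. Of 23 measured, 2 were lower, Thy1 (-0.72, adjusted p 0.0173) and Cd2 (-0.53, adjusted p 0.03), and 0 higher, with a median of -0.27 and 19 members below 0. Cd3e (-0.34), Cd4 (-0.41, adjusted p 0.0613) and Cd8a (-0.27) did not pass. The count was 1 without any 1 of the A/J replicates and 0 without C57BL/6J replicate 3, but 6 with the replicate block, 8 with 12 arrays and 9 with 24 or 48 arrays in the fit. Cd6, a T cell surface receptor, was lower by 1 probe set, at 7.07, 7.04 and 7.25 against 8.40, 8.60 and 8.81 (-1.48, adjusted p 1.60e-04), while its brighter probe set gave -0.31.

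Of 22 genes of natural killer and cytotoxic cells, 6 were lower in A/J and 0 higher, with a median of -0.14. Klrd1, the CD94 chain of natural killer receptors, was 7.82, 7.82 and 7.76 in A/J and 8.96, 9.08 and 9.51 in C57BL/6J (-1.38, SE 0.14, adjusted p 4.26e-04). Ccl5, a chemokine stored by cytotoxic cells, was 11.09, 11.50 and 11.41 against 12.69, 12.33 and 12.50 (-1.17, SE 0.14, adjusted p 9.56e-04). Both genes had no overlap between the strains. Gzma, a granzyme (-0.67), Klra7, a Ly49 receptor (-0.52), Il2rb, an interleukin-2 receptor chain (-0.52), and Prf1, perforin (-0.44), were also lower. Ncr1 (0.03), Klrk1 (-0.10) and Gzmb (-0.27) did not pass. The count was 3 without A/J replicate 2, A/J replicate 3 or C57BL/6J replicate 1, and 2 without the arrays high in pancreas or in testis transcripts.

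Macrophage genes split in both directions. Of 31 measured, 6 were lower and 2 higher in A/J, with a median of -0.07. Cd5l differed by -2.50 (SE 0.27, adjusted p 6.11e-04). Marco, a scavenger receptor of marginal zone macrophages, was 9.79, 9.37 and 9.84 in A/J and 11.07, 10.71 and 11.05 in C57BL/6J (-1.28, SE 0.15, adjusted p 0.00105), and Mpeg1, perforin-2, was 11.60, 11.57 and 11.65 against 13.24, 12.86 and 12.72 (-1.33, SE 0.14, adjusted p 4.27e-04). Csf1r, the receptor for the growth factor of macrophages (-0.67), Lgmn, a lysosomal protease (-0.73), and Lyz2, lysozyme (-0.55), were lower. Spic, the factor that red pulp macrophages need, was 10.60, 11.17 and 10.85 against 10.04, 9.88 and 9.90 (0.94, SE 0.14, adjusted p 0.00436), and Mrc1, the mannose receptor, was higher by 0.72. All A/J values were above all C57BL/6J values for Spic. Adgre1, or F4/80 (0.18), Vcam1 (0.07), Cd68 (-0.04) and Siglec1 (-0.11) did not pass. The 6 lower calls became 3 and the 2 higher became 0 without the arrays high in pancreas transcripts, and 4 and 0 without those high in testis transcripts. Without A/J replicate 2, C57BL/6J replicate 1 or C57BL/6J replicate 3 they were 4 and 1, and without A/J replicate 1 4 and 2.

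Of 20 neutrophil and myeloid precursor genes, 5 were higher and 2 lower in A/J, with a median of 0.16. Camp, the cathelicidin of secondary granules, was 11.45, 12.06 and 12.35 in A/J and 11.12, 10.11 and 10.72 in C57BL/6J (1.3, SE 0.28, adjusted p 0.0214). Mpo, myeloperoxidase (0.95), S100a8, a calgranulin (0.94, adjusted p 0.0480), Ltf, lactoferrin (0.64), and Anxa1, annexin A1 (0.57), were higher. Pglyrp1 (-0.51) and Mmp9 (-0.41), both granule proteins, were lower, and Ngp (1.25, adjusted p 0.0589), Elane (0.17) and Ly6g (0.37) did not pass. The count of 5 rested on single arrays: it was 1 without A/J replicate 2 or 3, 2 without C57BL/6J replicate 3, 3 without C57BL/6J replicate 1 or 2, and 8 without A/J replicate 1. It was 0 without the arrays high in testis transcripts.

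Antigen presentation genes of MHC class II fell in A/J with 1 exception among those called. Of 13 measured, 6 were lower and 1 higher, with a median of -0.53, and 11 had A/J values all below the C57BL/6J values, against 17.1% of genes. H2-Ab1, the I-A beta chain, was 12.40, 12.51 and 12.52 in A/J and 13.33, 13.29 and 13.57 in C57BL/6J (-0.92, SE 0.11, adjusted p 8.54e-04). H2-Eb1, the I-E beta chain, was 13.59, 13.73 and 13.74 against 14.16, 14.18 and 14.24 (-0.51, SE 0.09, adjusted p 0.0108). H2-Oa (-0.71), H2-DMa (-0.56) and H2-DMb1 (-0.55), which edit the peptides loaded, and Ifi30, a reductase of the loading compartment (-0.66), were lower. H2-Ea, the I-E alpha chain, whose expression is known to be missing in the H2-b haplotype of C57BL/6J, was higher in A/J, at 9.23, 9.74 and 9.64 against 8.32, 8.09 and 8.08 (1.37, SE 0.14, adjusted p 5.10e-04). H2-Aa and Cd74, at 14.28 to 14.46 in all 6 spleens, were near the array maximum and gave -0.08 and -0.07. The count of 6 was 4 without A/J replicate 2, 3 without the arrays high in testis transcripts, 1 without those high in pancreas transcripts and 0 with the hepatocyte mean as a covariate, while the median stayed between -0.55 and -0.44 in every alternative that read 1 probe set per gene.

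Of 22 MHC class I and peptide loading genes, 3 were lower in A/J and 0 higher. Tap1, a subunit of the peptide transporter, was 10.53, 11.02 and 10.64 in A/J and 12.15, 11.73 and 12.30 in C57BL/6J (-1.33, SE 0.17, adjusted p 0.00186), with -0.09 by a dimmer probe set, and Psme1 (-0.54) and Psmb10 (-0.41), of the immune proteasome, were the others. The class I heavy chain H2-K1 (-0.11) and B2m (0.07), its partner, did not pass, although a dimmer H2-K1 probe set gave 1.27, which did. The 3 calls fell to 1 without any 1 of the A/J replicates, without C57BL/6J replicate 1 or 3, or without the arrays high in pancreas or testis transcripts. Of 13 dendritic cell genes 3 were lower, Itgax (-0.47, adjusted p 0.0417), Batf3 (-0.42) and Flt3 (-0.37), and 0 higher. These 3 fell to 0 without A/J replicate 2 or 3, C57BL/6J replicate 1 or 2, or the arrays high in pancreas or testis transcripts, and to 1 without A/J replicate 1.

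Interferon response genes were divided. Of 32 measured, 5 were higher in A/J and 2 lower, with a median of 0.11. Isg20, an exonuclease, was 12.64, 12.51 and 12.18 in A/J and 10.40, 10.31 and 11.29 in C57BL/6J (1.78, SE 0.24, adjusted p 0.00228). Isg15, a ubiquitin-like modifier (0.99), Ifi202b, a DNA-binding family member with known strain alleles (1.02), and the GTPases Igtp (0.84) and Irgm2 (0.71) were higher. Mx1, an antiviral GTPase (-0.46), and Ifi204 (-0.41) were lower. Irf7 (-0.29), Ifit1 (0.23), Gbp2 (-0.22) and Cxcl10 (0.14) did not pass. The 5 became 3 without the arrays high in pancreas transcripts and 2 without those high in testis transcripts.

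The remaining lists had few calls. None of 19 ribosomal protein genes (median -0.06), 36 oxidative phosphorylation genes (0.10) or 18 genes of endoplasmic reticulum chaperones and secretion (-0.04) passed in either direction. Of 32 chemokines and receptors only Ccl5 passed, of 12 megakaryocyte genes only Alox12 (0.52), of 13 mast cell genes only Tpsb2 (0.53), and of 10 adipocyte genes only Lpl (0.81). Of 18 endothelial genes Ramp2 (-0.58), Tie1 (-0.40) and Stab1 (-0.37) were lower, a count that was 0 without A/J replicate 2, A/J replicate 3 or C57BL/6J replicate 1 and 1 without C57BL/6J replicate 3. Of 30 stromal genes Sparc, a matrix protein (0.82), Mgp (0.47) and Col14a1 (0.39) were higher and Thy1 and Tagln (-0.51) lower, and the 3 higher calls fell to 1 without A/J replicate 2 or 3 or C57BL/6J replicate 2 or 3. Of 27 acute phase and stress genes Hsp90aa1, a chaperone (0.99), and Apcs, serum amyloid P (0.44), were higher. Zbtb16 (-1.25) and Fkbp5 (-0.76), both known targets of glucocorticoids, were lower, though the other probe set of Zbtb16 gave -0.13, which did not pass.

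Further genes were named for the size of their difference. Higher in A/J were Ctse, an aspartic protease (3.41), Sowaha (3.11), Cdr2 (2.9), Gch1, the enzyme that starts tetrahydrobiopterin synthesis (2.88), and Xpo7, a nuclear exportin that the erythroid list holds (2.85 and 2.55 by its 2 probe sets). Ctse was 13.17, 13.31 and 13.06 against 10.09, 8.97 and 10.26 by this probe set, but its other 2 gave -0.70, which passed, and -0.37. Lower in A/J was Gpx3, a secreted glutathione peroxidase, at 11.79, 11.02 and 11.30 against 13.53, 13.29 and 13.41 (-2.04, SE 0.18, adjusted p 2.04e-04). Cotl1, an actin-binding protein (-1.66), Atp2a3, a calcium pump of blood cells (-1.57), Runx1, a blood transcription factor (-1.38), and Pld4, a lysosomal nuclease (-1.36), were also lower in A/J. The brightest probe set of Atp2a3 gave only -0.41 (adjusted p 0.21), which did not pass, and another gave -0.60, which did. A dimmer probe set of Pld4 gave 0.07, which did not pass.

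The strain difference was then set beside that of the spleens of time 1, which the labels place under another file name stem, so that time and array set cannot be told apart. At time 1, A/J was higher in 148 of 8251 genes (1.79%) and lower in 238 (2.88%). Of the 663 probe sets higher in A/J at time 2, 107 (16.1%) were also called at time 1, which is 45.9% of the 233 called there, and of the 445 lower 157 (35.3%) were, which is 42.4% of 370. Erythroid genes had a median of 0.76 at time 1, with 1 of 24 called, and cell cycle genes 0.32, with 3 of 46 called. The C57BL/6J spleens of time 1 were spread. Their erythroid means were 11.52, 10.46 and 10.98 against 11.53, 11.82 and 11.68 in A/J. The cell cycle means were 9.69, 9.19 and 9.36 against 9.64, 9.86 and 9.75 in A/J. Slc4a1 averaged 13.07 in A/J and 12.23 in C57BL/6J at time 1, and Rrm2 9.04 and 8.52. MHC class II genes had a median of -0.44 at time 1, with 7 lower and 1 higher, close to the -0.53 of time 2. The 6 spleens of time 1 had hepatocyte means of 8.12 to 8.31 and a hepatocyte median difference of 0.07. Interferon response genes had 10 lower and 1 higher at time 1, with a median of -0.26.

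In the test of whether the difference itself changed between the times, 23 probe sets (0.185%) were more positive at time 2 and 3 (0.0242%) more negative. By 1 probe set per gene 19 (0.230%) and 0 passed. Mki67 had the largest change of the 8 genes with the smallest p, from 0.96 to 3.53 (strain by time 2.57, adjusted p 0.0164). Cmas, which activates sialic acid, went from 0.18 to 1.64 (1.47, adjusted p 0.00874), and Nusap1, a spindle protein, from 1.05 to 2.67 (1.62, adjusted p 0.0292). Abcg2, a transporter that exports porphyrins among other cargo (1.56), Fech (1.35), Piga, of glycolipid anchor synthesis (1.29), Kpna2, an importin (1.5), and Prxl2a (1.82) passed as well. Other probe sets of these genes did not pass, at -0.25 for Cmas, -0.19 for Mki67, 0.12 for Nusap1, 0.63 for Piga and -0.27 for Prxl2a. For Hemgn the change of 3.69 did not pass (adjusted p 0.0626), and of the 24 erythroid and 46 cell cycle genes 1 and 2 did. Alb, the hepatocyte transcript that stood high in the A/J spleens of time 2, passed with a larger change than Mki67 (3.43, adjusted p 0.0448). It was the 1 call among the 28 hepatocyte genes. The count of 23 was 252 without A/J replicate 1, 141 without C57BL/6J replicate 3, 74 without C57BL/6J replicate 2, 9 without A/J replicate 2 and 3 without C57BL/6J replicate 1, and the count of 3 was 85, 82, 7, 2 and 2.

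**Figure D4:**
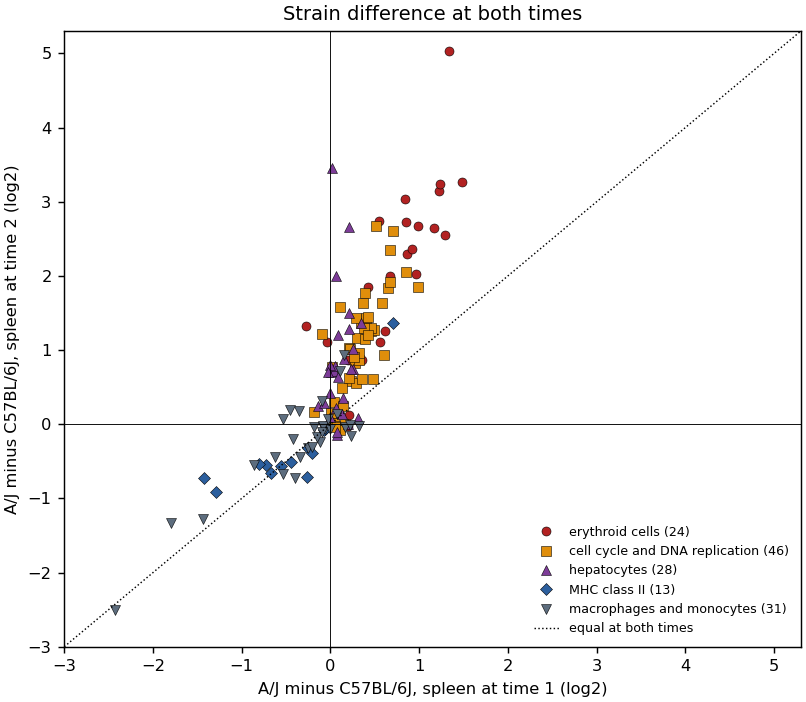
Strain difference (A/J minus C57BL/6J, log2) in spleen at time 2 against that at time 1 for the genes of 5 lists; the dotted line marks equal differences. Most erythroid (red) and cell cycle (orange) genes lie above the line in the upper right, hepatocyte genes (purple) spread along the vertical axis, and macrophage and MHC class II genes lie nearer the line.

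Set against the other tissues at time 2, the spleen difference exceeded the mean difference of liver, heart and lung for 1051 probe sets (8.46%) and lay below it for 1010 (8.13%), or 793 (9.61%) and 760 (9.21%) of the genes. Of the 24 erythroid genes 21 were in the former group, as were 37 of the 46 cell cycle genes and 20 of the 28 hepatocyte genes. Of the 24 B cell genes 12 and of the 13 MHC class II genes 8 were in the latter. The erythroid median was 0.12 in liver, -0.03 in heart and -0.02 in lung. Among the 8 genes with the smallest p in each direction, Tspan33, a tetraspanin of erythroid precursors (2.73), Ubac1 (2.45) and Xpo7 (2.87) exceeded the other tissues. Below them were Pik3cd, the leukocyte PI3-kinase (-0.94), Crip1 (-1.45), Ckb, a creatine kinase (-0.86), and Rtn1 (-1.11). In liver, heart and lung, Ly6d differed by 0.16, 0.02 and -0.34 and Rhag by 0.00, -0.09 and -0.14. The negative count of 1010 was 665 without A/J replicate 2 and 656 without C57BL/6J replicate 1. Transcripts of other organs also stood high among the comparison arrays, as Prss2 reached 13.70 and Prm1 10.27 in the C57BL/6J livers of time 2. The Gapdh 3′ probe set exceeded the 5′ probe set by 1.05 to 1.96 in the lungs and by 0.08 to 0.35 in the livers and hearts. The part of these in the comparison of tissues was not tested.

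A small set of differences was shared by the 4 tissues, with 10 probe sets (0.0805%) higher in A/J in all and 25 (0.201%) lower in all. Several of them rest on 1 probe set of a gene. Whether the probes meet sequence differences between the strains was not checked for these or any other genes. Gas5, a host of small nucleolar RNAs, was 8.28, 9.17 and 9.21 in A/J spleens and 12.19, 12.37 and 12.65 in C57BL/6J spleens (-3.52), with -3.51 in liver, -2.83 in heart and -2.80 in lung. Its other 2 probe sets gave -0.46 and 0.06 in spleen. Snhg6, another such host (-2.09), Ctsc, cathepsin C (-2.14 by 1 probe set, with 0.16 and -0.41 by its others), and Spg21, maspardin (-1.86), were lower in spleen and in the other tissues. Glo1, which detoxifies methylglyoxal, was 11.91, 12.20 and 12.17 against 9.67, 9.88 and 9.89 (2.28), and its other probe set gave 2.04. Alad was higher in every tissue, by 1.14 to 1.34 outside the spleen and 3.65 within it, and its difference in spleen exceeded the mean of the others by 2.42 (adjusted p 2.60e-09). Zbtb16 was lower in all 4 by 1 probe set, while its other gave -0.13 in spleen and was called in 0 tissues. H2-D1, a class I heavy chain, was higher by 1.64 by 1 probe set, with -0.09 and -0.02 by brighter ones.

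**Figure D5:**
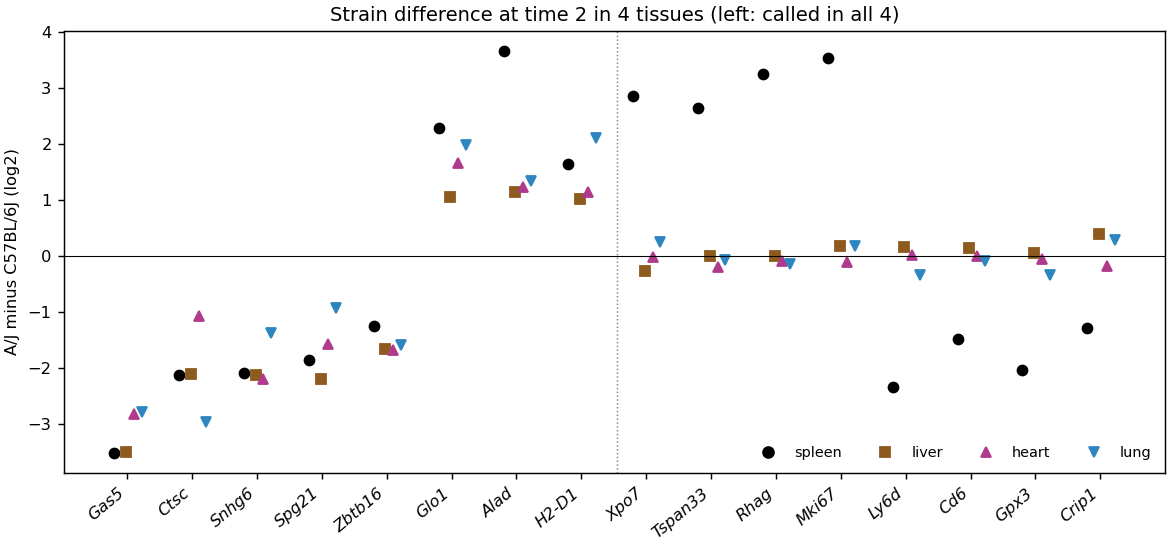
Strain difference at time 2 (A/J minus C57BL/6J, log2) of 16 genes in spleen (black circles), liver (brown squares), heart (pink triangles) and lung (blue inverted triangles). The 8 genes left of the dotted line have the same sign in every tissue, and the 8 to its right differ in spleen, as Rhag does by 3.24, with the other tissues near 0.

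Of the remaining genes with known strain alleles, Nnt, a mitochondrial transhydrogenase deleted in part in C57BL/6J, was 9.65, 9.68 and 9.67 in A/J and 9.20, 9.07 and 8.99 in C57BL/6J (0.58, adjusted p 0.00613). Hopx, a homeodomain-only protein (-0.95), and Cyfip2, a regulator of actin (-0.71), were lower in A/J. In all, 6 of the 24 genes of this list were higher and 6 lower in A/J spleens.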

How the data were processed

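Expression was measured on Affymetrix MG-U74Av2 arrays, 1 per sample. The authors deposited log2 values for 12488 probe sets, from 4.252 to 14.72. Their normalization and image processing are not given in the sources used here, so its effect on the values cannot be stated. The 66 control probe sets were left out and no filter was set. Genes were named from the annotation table of the platform: 10833 probe sets had 1 symbol (8251 genes), 396 several, and 1193 were not listed and are not named. With 3 arrays per group, it is their number that sets the precision.

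Differences were tested with limma 3.58.1 in R 4.3.3 (lmFit, eBayes) on the 6 spleen arrays of time 2, with Benjamini-Hochberg adjustment over all probe sets tested and a limit of 0.05. Strain by time used the 12 spleen arrays, and spleen against other tissues the 24 arrays of time 2. Differences carry the standard error (SE) of the fit.

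Where a gene had several probe sets, lists used the one whose mean over 48 arrays was highest. The comparison, gene lists and named genes were chosen with earlier results of these data known. Named were the 15 genes per direction with the largest difference among calls without overlap, up to 6 members of each list with the smallest p plus its defining markers, 8 genes for strain by time, 8 per direction for spleen against other tissues, 8 called in all 4 tissues, and genes with known strain alleles. Examples beyond this were chosen after their values were seen. Alternatives were quantile normalization, median centring, a filter below the 25th percentile, trend and robust moderation, each array left out, a replicate block, fits on 12, 24 or 48 arrays, covariates, and leaving out arrays or probe sets high in pancreas, testis or liver transcripts. The hepatocyte and Prm1 covariates, the testis list and leaving out the arrays high in testis transcripts were added after the values were seen. The calculations were checked on simulated data. Promoters came from RefSeq (GRCm38.p6).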

Additional observations from a re-analysis of the deposited data

Results flagged for a closer look

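Several results differed between times or tissues by a test of the difference itself. Between the times in spleen, 23 probe sets had a more positive and 3 a more negative strain difference at time 2 (limma, Benjamini-Hochberg adjusted p under 0.05). The 8 genes with the smallest p, with their change in the A/J minus C57BL/6J difference, were Cmas at 1.47, Mki67 at 2.57, Piga at 1.29, Abcg2 at 1.56, Prxl2a at 1.82, Kpna2 at 1.5, Fech at 1.35 and Nusap1 at 1.62. Each value is from 1 probe set, and other probe sets of these genes did not pass, at -0.25 for Cmas, -0.19 for Mki67, 0.63 for Piga, -0.27 for Prxl2a and 0.12 for Nusap1. Time and the set of arrays cannot be told apart in these values.

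Between the tissues of time 2, the spleen difference was more positive than the mean of liver, heart and lung in 1051 probe sets and more negative in 1010. More positive in spleen were Xpo7 by 2.87, Tspan33 by 2.73, Ubac1 by 2.45, Rhag by 3.31, Rhd by 3.22, Sowaha by 3.05, Mki67 by 3.44 and Epb42 by 3.63. More negative were Ly6d at -2.30, Cd6 at -1.49, Ighv14-2 at -3.81, Pik3cd at -0.94, Gpx3 at -1.91, Ckb at -0.86, Crip1 at -1.45 and Rtn1 at -1.11. Other probe sets did not pass for Mki67 (-0.06), Epb42 (-0.02), Ly6d (-0.32), Cd6 (-0.23) and Pik3cd (-0.23), while Xpo7 passed by its other probe set (2.50) and Ighv14-2 by 1 of its others (-0.68, with -0.41 by the last). The same named spleen values also enter the comparison of strains at time 2, so these are not independent of it.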

How the results depend on the processing

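The 21 erythroid calls were 17 to 22 under every alternative run, and none of the genes named for the size of their difference turned its direction. With quantile normalization or median centring, 1065 and 1007 of the 1108 calls were kept. Fits with more arrays called more, at 1024 higher and 966 lower in A/J with 12 arrays, 1226 and 1246 with 24, and 1404 and 1607 with 48, so that the share of calls higher in A/J went from 59.8% to 51.5%, 49.6% and 46.6%. The exocrine pancreas covariate gave 306 and 101, leaving out the arrays high in pancreas transcripts 325 and 110, the hepatocyte covariate 155 and 38, leaving out the arrays high in testis transcripts 261 and 197, and the Prm1 covariate 176 and 136. These last 5 leave fewer residual degrees of freedom. The hepatocyte mean and Prm1 also separate the strains without overlap, so with either as a covariate, strain and covariate cannot be fully told apart. Leaving out 1 array gave 392 to 715 and 160 to 534.

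Cell cycle calls, 33 in the main analysis, were 30 to 34 with 1 array left out, 21 without the pancreas arrays, 20 without the testis arrays, 8 with the hepatocyte and 12 with the Prm1 covariate. The 6 MHC class II calls were 10 with 12, 24 or 48 arrays, 2 with the pancreas or Prm1 covariate, 1 without the pancreas arrays, 0 with the hepatocyte covariate and 3 without the testis arrays. The 7 hepatocyte calls were 3 to 12 with 1 array left out, 4 with trend and robust moderation, 17 with 12 and 18 with 24 or 48 arrays, 2 with the pancreas covariate, 0 without probe sets high in liver (which leaves 3 members), 0 with the hepatocyte or Prm1 covariate, 1 without the testis arrays and 11 with all probe sets of a gene averaged. The 23 positive strain by time calls were 10 with quantile normalization, 15 with median centring and 3 to 252 with 1 array left out, and the 3 negative 1 with median centring and 2 to 85. Spleen against other tissues gave 781 to 1224 and 656 to 1112 with 1 array left out, and with median centring 1008 and 1105 in place of 1051 and 1010. Alb missed the limit with trend and robust moderation (adjusted p 0.0533) and with the hepatocyte (0.0975) and Prm1 (0.117) covariates, at 3.45, 1.51 and 2.14. The hepatocyte covariate is the mean of the same hepatocyte genes, Alb among them, so the fall of these genes with it was fixed in advance. The cause of the other changes was not tested.

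Same-numbered arrays of the strains correlated at 0.25, 0.07 and 0.22 in their deviations, and differently numbered ones at -0.33 to 0.17. These values do not settle whether replicate numbers pair the samples, which the main test took as unpaired. With the replicate block 1420 probe sets passed, 1065 of them shared with the main 1108, hepatocyte calls were 12, and strain by time calls 5 and 1. Not every array correlated best with its own number.

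Values near the array maximum understate differences, and values near those of tissues without the transcript give lower bounds.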
